A study of Mus musculus with 5 samples.

Results

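Interleukin-12 tells a CD4 T cell to become a T helper 1 (Th1) cell, and interleukin-18 synergises with it in raising interferon-gamma. The 10 genes described here encode the receptors of these 2 cytokines, factors that act behind them, and interferon-gamma with its receptor. They are the 2 chains of the interleukin-12 receptor (Il12rb1 and Il12rb2), the transducer Stat4, the 2 chains of the interleukin-18 receptor (Il18r1 and Il18rap), the transcription factors Tbx21 (T-bet) and Hlx, the effector cytokine gene Ifng, and the 2 chains of the interferon-gamma receptor (Ifngr1 and Ifngr2). They were taken by gene name, 10 of the 19937 genes measured, each through the probe set of highest mean level, and each had 1 probe set. A probe set is a group of array probes read as 1 value, here a log2 signal, so a difference of 1 is a doubling.

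The cells were sorted as CD45+CD3+CD4+CD44low from mouse colon lamina propria, the connective tissue under the gut lining, and the series describes them as incompletely differentiated. Both genotypes carried the floxed gene of calcineurin B (Cnb1, gene symbol Ppp3r1), the regulatory subunit of the calcium-dependent phosphatase that activates NFAT factors. Conditional mice (CD4cre/Cnb1flox, 3 arrays) also had Cre recombinase under CD4 control, and control mice (labelled control WT and CD4neg/Cnb1flox, 2 arrays) had none. CD4-driven Cre becomes active in the thymus, so other descendants of CD4-expressing thymocytes can lose the gene too. The sources used here give neither strain nor age. The labels do not tie an array to a number of mice, so the p-values rest on the spread between samples that may be technical replicates, and the number of arrays limits every value. The study asked whether calcineurin B holds back Th1 differentiation and the JAK/STAT route.

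As background, interleukin-12 binds a receptor of 2 chains. Il12rb1 is shared with the interleukin-23 receptor, and Il12rb2 is the inducible chain that docks STAT4, phosphorylated by JAK2 and TYK2. Interleukin-18 signals through Il18r1 and Il18rap to MYD88 and synergises with interleukin-12 in raising interferon-gamma, while T-bet and HLX maintain Il12rb2 and Ifng.

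Facts of the arrays that bear on these genes come first. The T cell marker list (17 measured genes of the receptor complex, CD4 and its kinases) averaged 10.75, 10.87 and 11.01 on the log2 scale in conditional replicates 1, 2 and 3, 8.39 in control replicate 1 and 11.07 in control replicate 2. Cd4 itself was at 9.26 in control replicate 1 and between 11.44 and 11.86 on the other 4 arrays. Control replicate 1 thus stood apart for the labelled cell type, and its epithelial signal was high as well. The log2 of the summed signal of 16 epithelial genes was 14.44 there, 12.70 in control replicate 2 and 11.85 to 12.25 in conditional cells. Fewer cells of a type and less RNA per cell cannot be told apart in such bulk samples. The values of the 10 genes are therefore shown for each control array on its own. The targeted gene Ppp3r1 read 8.64, 8.83 and 8.77 in conditional and 8.99 and 8.60 in control replicates, and the sources used here do not say which part is deleted, so the probe set may check nothing.

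Of the 10 genes, 1 passed an adjusted p of 0.05, Il12rb2, which was higher in conditional cells (limma, Benjamini-Hochberg adjustment over all genes). Over all genes 0.416% passed, 0.371% higher and 0.0451% lower. All 3 conditional values lay above both controls for 5 genes, Il12rb2, Stat4, Il18r1, Il18rap and Ifngr1, and below both for Ifngr2, whereas 30.5% of all genes had groups apart in this way, 17.4% above and 13.1% below. The remaining 4, Il12rb1, Tbx21, Ifng and Hlx, had overlapping groups. The median difference was 1.13 over the 10 genes and 0.03 over all genes. Against control replicate 1 alone the median of the 10 was 1.63, and against control replicate 2 alone it was 0.45.

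**Figure D1:**
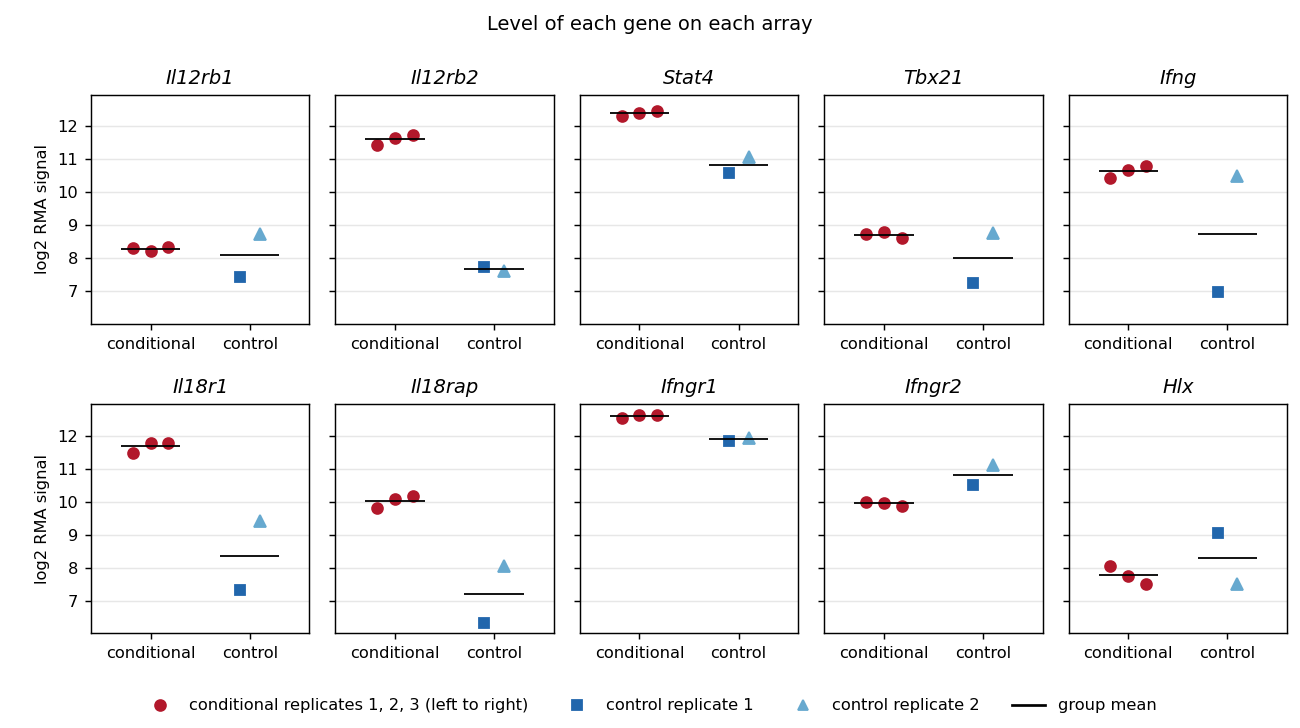
Log2 RMA signal (vertical axis) of each of the 10 genes on each array, with 3 conditional arrays (circles), control replicate 1 (square), control replicate 2 (triangle) and group means (lines). Conditional values lie close together for every gene, while the 2 controls are close for Il12rb2 and Ifngr1 and furthest apart for Ifng, at 6.97 and 10.48.

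The receptor chain that limits interleukin-12 responses, Il12rb2, was read at 11.44, 11.66 and 11.74 in conditional replicates 1, 2 and 3, and at 7.73 and 7.61 in control replicates 1 and 2. Conditional cells were uniformly high and both controls low, with 3.72 between the nearest values of the 2 groups. Conditional exceeded control by 3.94 ± 0.133 (SE, limma, adjusted p = 0.0112; 95% confidence interval 3.60 to 4.28), and this was the smallest p of the 19937 genes in this fit. Conditional cells read 14.8 times control replicate 1 and 16.0 times control replicate 2. Both control values lay little above the array medians of 7.12 to 7.23, and their mean was at the 52.8 percentile of all genes. Without a call against background these ratios are approximate. The 2 controls differed widely in T cell signal, and its part in their close Il12rb2 values was not tested. The direction and size held without any 1 conditional array, at 4.03, 3.92 and 3.88, but Il12rb2 did not pass there (limma, adjusted p = 0.0863, 0.267 and 0.0723 without conditional replicates 1, 2 and 3). In those fits 0 genes of the whole table passed, with 2037, 1677 and 1417 at an unadjusted p under 0.05.

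Its more broadly expressed partner chain Il12rb1 had overlapping groups. It was read at 8.32, 8.23 and 8.34 in conditional cells, and at 7.45 and 8.75 in control replicates 1 and 2. The conditional arrays lay between the controls. The difference of 0.20 ± 0.386 (SE, limma, adjusted p = 0.884) had an interval from -0.79 to 1.18, and it turned to -0.45 without control replicate 1.

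Stat4, which carries the interleukin-12 signal to the nucleus, was at 12.32, 12.42 and 12.46 in conditional cells and at 10.59 and 11.08 in controls. The groups did not overlap, with 1.24 between their nearest values. The difference was 1.56 ± 0.176 (SE, limma, adjusted p = 0.0545), just outside the threshold. Stat4 passed without control replicate 1 (1.31, adjusted p = 0.00772), without control replicate 2 (1.81, adjusted p = 0.00128), with a variance trend (adjusted p = 0.0395) and with every probe set tested (adjusted p = 0.0443). It did not pass with array weights (adjusted p = 0.103), with the replicate block (adjusted p = 0.0971) or without conditional replicate 1, 2 or 3 (adjusted p = 0.271, 0.388 and 0.283). No control has replicate number 3, so the block gives the same difference as leaving out conditional replicate 3 (1.53). A fit with 1 control takes its spread from the conditional arrays alone and assumes that the control varies like them. Without control replicate 1, 6.1% of all genes passed, and without control replicate 2, 27.5%.

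Both chains of the interleukin-18 receptor were high on every conditional array. Il18r1, the ligand-binding chain, was at 11.48, 11.79 and 11.78, against 7.32 in control replicate 1 and 9.42 in control replicate 2. Il18rap, the accessory chain needed for signalling, was at 9.81, 10.10 and 10.18, against 6.33 and 8.06. For both genes control replicate 1 was the lowest array and control replicate 2 lay between it and the conditional arrays, with no overlap of the groups. The differences were 3.31 ± 0.618 for Il18r1 and 2.84 ± 0.517 for Il18rap (SE, limma, adjusted p = 0.116 and 0.114), with intervals from 1.73 to 4.89 and from 1.51 to 4.16. Conditional Il18r1 signal was 20.6 times that of control replicate 1 and 4.78 times that of control replicate 2. For Il18rap these ratios were 13.02 and 3.92. Il18r1 and Il18rap passed without control replicate 1 (2.26 and 1.97, limma, adjusted p = 0.00424 and 0.00633) and without control replicate 2 (4.36 and 3.70, adjusted p = 0.00100 and 0.00100), and not with array weights (adjusted p = 0.137 and 0.144).

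The transcription factors at the end of the axis did not pass. Tbx21, which encodes T-bet, the lineage regulator of Th1 cells, was at 8.72, 8.81 and 8.61 in conditional cells, at 7.26 in control replicate 1 and at 8.75 in control replicate 2. The conditional arrays lay around control replicate 2, and control replicate 1 was low. The groups differed by 0.71 ± 0.441 (SE, limma, adjusted p = 0.537; interval from -0.42 to 1.83), and by -0.04 without control replicate 1. Hlx, a homeobox factor that cooperates with T-bet, was at 8.05, 7.75 and 7.52 in conditional cells, and at 9.05 and 7.52 in controls. Control replicate 1 was here the highest array and the other control was among the lowest. The difference of -0.51 ± 0.472 (SE, limma, adjusted p = 0.698) turned to 0.25 without control replicate 1.

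Ifng, the cytokine gene that T-bet and STAT4 drive, was at 10.43, 10.68 and 10.80 in conditional cells. It was at 6.97 in control replicate 1 and at 10.48 in control replicate 2, inside the conditional range. The 2 controls differed by 3.52, more than for 99.8% of all genes. The groups differed by 1.91 ± 1.02 (SE, limma, adjusted p = 0.469; interval from -0.69 to 4.51). Conditional signal was 12.7 times that of control replicate 1 and 1.11 times that of control replicate 2, so the value for Ifng rests on which control is used.

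The 2 chains of the interferon-gamma receptor lay on opposite sides of the controls in conditional cells. Ifngr1, the ligand-binding chain, was at 12.54, 12.65 and 12.63 in conditional cells and at 11.85 and 11.95 in controls. All conditional arrays were higher, and the controls lay 0.10 apart. The difference was 0.71 ± 0.106 (SE, limma, adjusted p = 0.0809). Ifngr2, the chain that couples the receptor to JAK2, was at 9.99, 9.98 and 9.88 in conditional cells, below 10.51 and 11.11 in controls. Its difference was -0.86 ± 0.201 (SE, limma, adjusted p = 0.166). Ifngr1 and Ifngr2 passed without control replicate 1 (0.65 and -1.16, limma, adjusted p = 0.0405 and 0.00928) and without control replicate 2 (0.76 and -0.56, adjusted p = 0.00800 and 0.0229), fits whose spread comes from the conditional arrays alone. They did not pass with the replicate block (adjusted p = 0.545 and 0.492) or array weights (adjusted p = 0.221 and 0.245). The difference between the 2 chains was not tested.

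For these genes the conditional arrays lay close together, and the controls often did not. The range over the 3 conditional arrays was between 0.11 and 0.53 for the 10 genes, with a median of 0.24, near the 0.22 of all genes. The 2 controls differed by a median of 1.40 for the 10 genes, against 0.28 for all genes. They differed by over 1 for 6 of the 10 genes (Il12rb1, Tbx21, Ifng, Il18r1, Il18rap and Hlx), against 13.3% of all genes. Control replicate 1 was the lower control for 8 of the 10, the exceptions being Il12rb2 and Hlx, and for 60.1% of all genes. The low T cell signal of that array moved with this, and its part in these values was not tested beyond the fits without it and with the T cell list as a covariate.

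**Figure D2:**
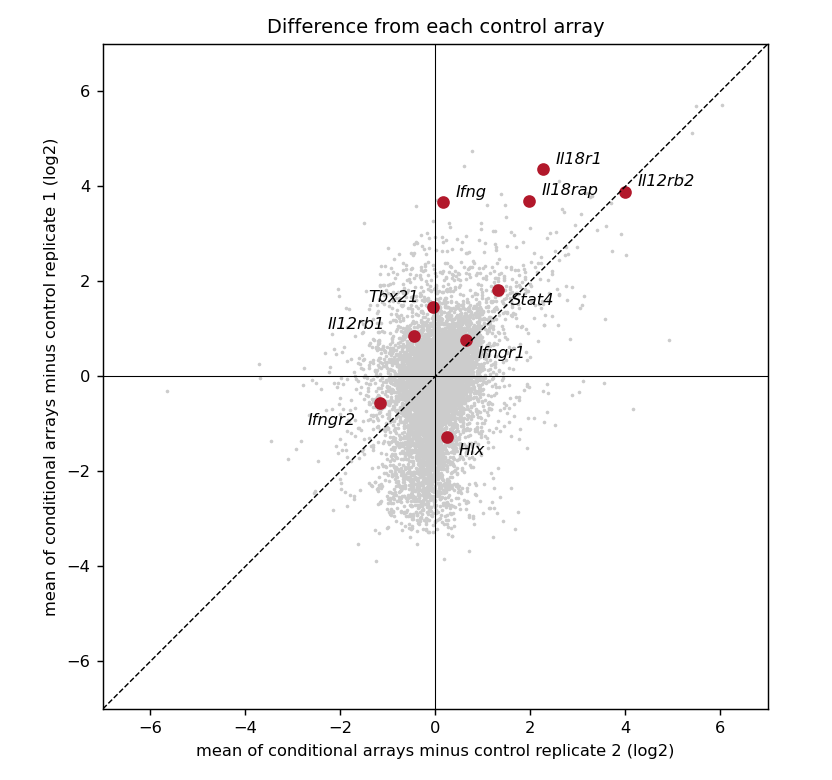
Difference of the conditional mean from control replicate 2 (horizontal axis, log2) and from control replicate 1 (vertical axis, log2) for all 19937 genes (grey) and the 10 genes of the axis (red, named); the dashed line marks equal differences. Il12rb2 and Ifngr1 sit near the dashed line, Il18r1 and Il18rap are above 0 on both axes, and Ifng is at 3.67 against control replicate 1 and 0.15 against control replicate 2.

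With the mean level of the T cell list as a covariate, 6 of the 10 genes passed, against 7.81% of all genes in the same fit. The list is so low on control replicate 1 that this fit is close to leaving that array out. Il12rb2 was at 3.98, Il18r1 at 2.41, Il18rap at 2.09, Stat4 at 1.35, Ifngr1 at 0.66 and Ifngr2 at -1.11 (limma, adjusted p = 0.000942, 0.00179, 0.0028, 0.0045, 0.027 and 0.00896). These are the same 6 genes whose groups did not overlap. Tbx21 was at 0.08, Ifng at 0.40, Il12rb1 at -0.36 and Hlx at 0.16, none of them past the threshold (adjusted p = 0.888, 0.0934, 0.140 and 0.722).

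**Figure D3:**
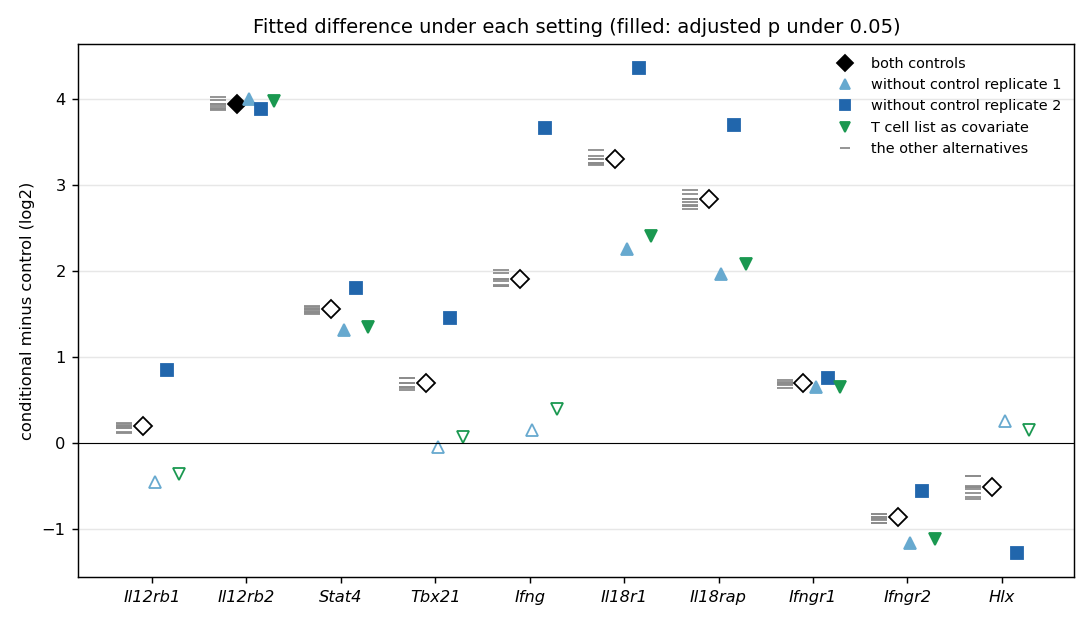
Fitted conditional minus control difference (vertical axis, log2) of each gene with both controls (diamonds), without control replicate 1 (triangles up), without control replicate 2 (squares), with the T cell list as covariate (triangles down) and under the other alternatives (grey dashes); filled symbols have an adjusted p under 0.05. Il12rb2 keeps a value between 3.88 and 4.03, while Tbx21, Ifng, Il12rb1 and Hlx move to near or across 0 once control replicate 1 is left out.

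The stretches upstream of the genes whose conditional values cleared both controls by the most, and of Ifng for contrast, are printed 5′ to 3′ from RefSeq (GRCm38.p6), ending at the start of the gene's span. Capitals mark a match to a STAT motif (TTCNNNGAA) or an NFAT motif (TGGAAA, or its reverse complement).

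Il12rb2 (chr6:67376294-67376438, minus strand): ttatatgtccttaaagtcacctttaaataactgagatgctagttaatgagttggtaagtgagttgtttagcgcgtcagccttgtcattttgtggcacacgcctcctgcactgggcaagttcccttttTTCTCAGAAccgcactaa

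Stat4 (chr1:51986898-51987105, plus strand): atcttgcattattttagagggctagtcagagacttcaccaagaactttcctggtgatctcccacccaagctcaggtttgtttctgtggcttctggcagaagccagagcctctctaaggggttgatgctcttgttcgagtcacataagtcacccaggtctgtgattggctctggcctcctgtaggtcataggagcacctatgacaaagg

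Il18r1 (chr1:40465302-40465551, plus strand): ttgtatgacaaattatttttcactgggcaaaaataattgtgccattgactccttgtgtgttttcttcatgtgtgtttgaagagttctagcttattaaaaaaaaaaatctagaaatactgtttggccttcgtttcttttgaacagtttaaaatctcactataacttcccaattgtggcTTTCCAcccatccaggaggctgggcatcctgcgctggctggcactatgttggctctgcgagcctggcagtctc

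Il18rap (chr1:40515112-40515361, plus strand): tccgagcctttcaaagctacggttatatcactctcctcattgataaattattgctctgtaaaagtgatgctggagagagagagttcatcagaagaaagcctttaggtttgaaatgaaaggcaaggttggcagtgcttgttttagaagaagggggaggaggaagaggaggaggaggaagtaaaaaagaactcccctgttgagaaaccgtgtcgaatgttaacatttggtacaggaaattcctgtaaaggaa

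Ifng (chr10:118440796-118441045, plus strand): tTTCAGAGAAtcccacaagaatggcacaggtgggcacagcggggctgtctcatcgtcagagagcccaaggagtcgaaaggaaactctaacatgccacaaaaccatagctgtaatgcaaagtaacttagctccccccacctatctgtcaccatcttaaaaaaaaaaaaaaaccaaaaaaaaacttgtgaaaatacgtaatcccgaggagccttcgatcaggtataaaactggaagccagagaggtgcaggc

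The matches are a description of these letters. Positions count back from a transcript start, over the 250 bases before it. For Il12rb2 and Stat4 that start lies inside the gene's span. Their printed stretches, of 145 and 208 bases, therefore stop short of it. Il12rb2 held 1 STAT match, beginning 123 bases before its transcript start, and Ifng held 1, beginning 249 bases before its own. The first Il18r1 promoter held 1 NFAT match on the opposite strand, 73 bases before the start. The third lies inside the gene's span and is not printed, and it held 2 STAT matches, 219 and 152 bases before its start. None of the 4 motifs searched on both strands was found in the Stat4 or Il18rap windows. Promoters were found for 9 of the 10 genes, 12 windows in all, and not for Il12rb1. A STAT match was in 3 of the 12 windows, against 7.02% of all 32851 promoters, and an NFAT match in 2, against 18.6%. A T-box motif (GGTGTGA) was in 0 of the 12, against 3.33%, and an AP-1 motif (TGANTCA) in 0, against 6.75%. Il18r1 has 3 windows, which overlap in part, so the windows are not independent, and both NFAT matches are 1 site seen in 2 of them.

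The other parts of the signalling route lay higher in conditional cells more often than lower, without passing singly. Among 25 measured ligands, related receptors, kinases and adaptors of interleukin-12 and interleukin-18, 0 passed the test and 12 had an unadjusted p under 0.05 (limma), 11 higher and 1 lower. Over all genes 14.5% had such a p. In this list 14 lay above both controls and 3 below, against 17.4% and 13.1% of all genes, and the median difference was 0.42. Taking 1 control at a time, this median came to 0.66 for replicate 1 and 0.25 for replicate 2. Earlier results of these data were known when this list and the others were picked. Such shares and medians therefore describe the lists and are not a test of the route. Il12b, the p40 chain shared by interleukin-12 and interleukin-23, was at 7.61, 7.70 and 7.63 in conditional and 6.89 and 6.72 in control cells, a difference of 0.84 (adjusted p = 0.0672). Il23a, the other chain of interleukin-23, differed by 1.37 (adjusted p = 0.0672), Ebi3, a subunit of interleukin-27, by 1.75 (adjusted p = 0.119; 1.19 without control replicate 1), and Il12a by 0.31.

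Within the same route, Il18bp, the soluble decoy of interleukin-18, differed by 0.68 (adjusted p = 0.0938), whereas Il18 itself was dim and lower, at 5.11, 5.13 and 4.98 against 6.45 and 5.62. Jak2, the kinase of the Il12rb2 chain, was at 11.68, 11.77 and 11.70 against 10.52 and 11.06, a difference of 0.93 (adjusted p = 0.126), and of 0.66 and 1.19 without control replicates 1 and 2. Tyk2, the kinase of the Il12rb1 chain, differed by 0.36 with overlapping groups. Stat3, which interleukin-23 uses, differed by 0.57 (adjusted p = 0.116), and Myd88, the adaptor of the interleukin-18 receptor, by 0.22.

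Among 25 measured partners and targets of T-bet and STAT4, 1 rose, Furin, against 0.371% of all genes, and 8 lay above both controls and 0 below, against 17.4% and 13.1% of all genes. Furin, a proprotein convertase induced by interleukin-12, was at 11.52, 11.60 and 11.84 against 9.95 and 10.14, a difference of 1.61 (limma, adjusted p = 0.0374). Bhlhe40, a factor that restrains Il10 in Th1 cells, differed by 0.99 (adjusted p = 0.0501, not past the threshold), and the chemokine receptor genes Cxcr6 and Cxcr3 by 3.09 (adjusted p = 0.0501) and 2.42 (adjusted p = 0.157; Cxcr3 was at 1.48 and 3.36 without control replicates 1 and 2). Havcr2, the TIM-3 gene of late Th1 cells, differed by 1.76 (adjusted p = 0.0617). Runx3, the partner of T-bet at Ifng, was at 0.91 and at -0.03 without control replicate 1. Eomes, the paralog of T-bet, was at 0.08 (adjusted p = 0.979), between -1.22 and 1.37 as single arrays were left out. The list median was 0.86 with both controls, 1.46 against control replicate 1 and 0.09 against control replicate 2.

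Genes induced through the interferon-gamma receptor included 2 that rose of 23 measured, against 0.371% of all genes, and 12 lay above both controls with 0 below, against 17.4% and 13.1%. Cxcl9, a chemokine that draws CXCR3-bearing cells, was at 8.73, 8.82 and 8.62 against 7.15 and 7.14, a difference of 1.58 (limma, adjusted p = 0.0279). Gbp3, a guanylate-binding GTPase, was at 9.87, 9.90 and 9.68 against 8.60 and 8.71, a difference of 1.16 (adjusted p = 0.0496). Gbp5, Nos2 and Irgm1 differed by 0.90, 1.07 and 0.53 (adjusted p = 0.0788, 0.111 and 0.147). Irf1, an early transcription factor of the interferon-gamma response, differed by 0.05 with overlapping groups, and its sign turned under several settings. The list median was 0.38, with 0.60 against control replicate 1 and 0.21 against control replicate 2.

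Of 18 measured factors that hold Th1 differentiation in check, 0 passed, and 1 was higher and 1 lower at an unadjusted p under 0.05 (limma). In this list 6 lay above both controls and 2 below, against 17.4% and 13.1% of all genes, and the median difference was 0.08. Id3, an inhibitor of E proteins, was at 8.45, 8.38 and 7.76 against 10.54 and 9.35, a difference of -1.75 (adjusted p = 0.170). Foxp3, the regulatory T cell factor, differed by 1.47 (adjusted p = 0.328), by 0.54 without control replicate 1 and by 2.41 without control replicate 2. Cish, a cytokine-induced feedback inhibitor, differed by 0.91, and by 0.24 and 1.57 in those fits. Stat6, the interleukin-4 transducer, differed by 0.26 (0.17 and 0.34 in those fits) and Socs5 by 0.24. Socs1, the feedback inhibitor of interferon-gamma signalling, differed by 0.10, and by -0.48 without control replicate 1.

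**Figure D4:**
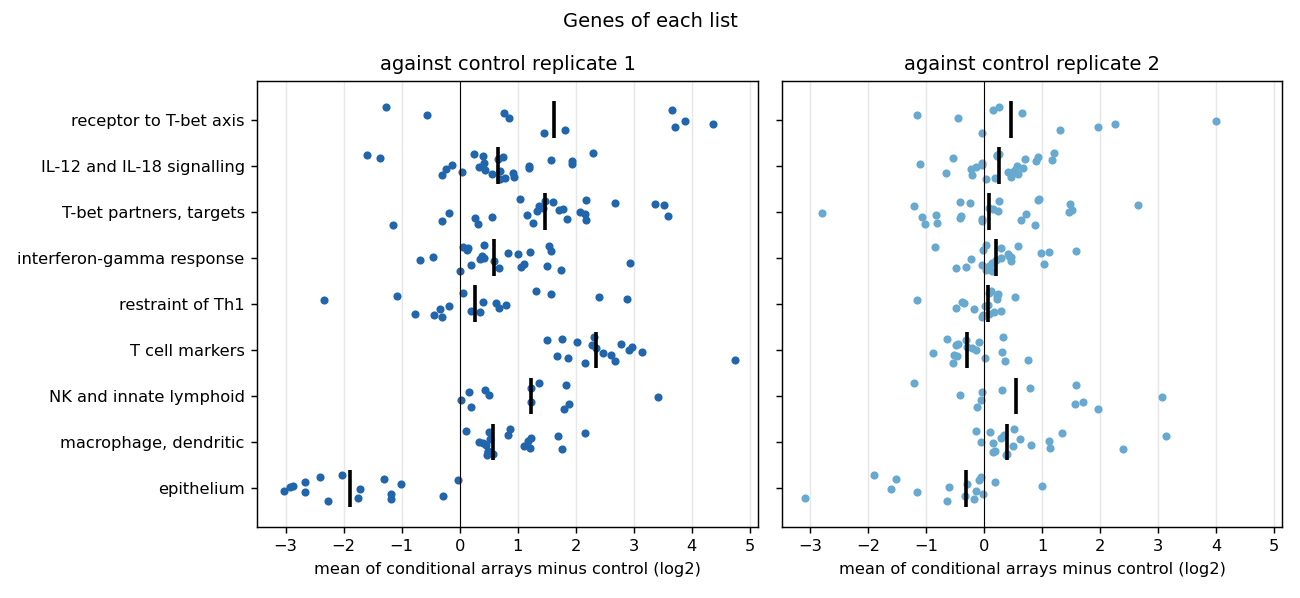
Difference of the conditional mean from control replicate 1 (left) and from control replicate 2 (right), horizontal axes in log2, for every measured gene of the axis, of the 4 pathway lists and of 4 marker lists; the black bars are list medians. The T cell markers have a median of 2.36 on the left and -0.30 on the right, and the 10 genes of the axis a median of 1.63 and 0.45.

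Natural killer and innate lymphoid cells also carry receptors for both interleukins, so their markers are given beside the axis. Of 12 measured, 7 lay above both controls and 0 below, against 17.4% and 13.1% of all genes. Of the 12, 1 rose, against 0.371% of all genes, Tyrobp, a signalling adaptor, by 1.88 (limma, adjusted p = 0.0269). Klrd1 (CD94) and Fcer1g differed by 3.24 (adjusted p = 0.0501) and 1.71 (adjusted p = 0.0501). Which cells the Tyrobp and Fcer1g signals came from was not tested. The log2 of the summed signal of the 12 markers was 11.24 to 11.50 in conditional cells, 9.71 in control replicate 1 and 10.65 in control replicate 2. Klrk1, Klri2 and Gzma also lay above both controls, at 1.72, 1.47 and 1.004, and Eomes read between 7.02 and 9.60 over the 5 arrays. Ncr1 (NKp46) was at 5.09, 4.98 and 5.13 against 4.88 and 5.20, and Klra8 and Klre1 were at 4.06 to 4.42 in conditional and 4.05 to 4.39 in control cells. Klrb1c also had overlapping groups, at 5.51, 5.49 and 5.73 against 5.06 and 5.99. In control cells Ncr1, Klra8 and Klre1 were at the 11.1, 4.10 and 2.39 percentiles of all genes. The part of these cells in the values of the axis was not tested.

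Macrophages and dendritic cells are the usual makers of interleukin-12 and interleukin-23. Of their 19 measured markers, 11 lay above both controls and 0 below, against 17.4% and 13.1% of all genes. Of the 19, 0 passed, with 9 at an unadjusted p under 0.05 (limma), against 14.5% of all genes. The log2 of the summed signal of these markers was 11.81 to 12.77 in conditional cells and 11.03 and 11.24 in controls. Lyz2 was at 8.92, 9.06 and 10.59 against 7.76 and 7.12. Cd68 differed by 0.76 with overlapping groups, Itgax by 1.17 and Xcr1 by 0.48. The part of these cells in the values of Il12b, Il23a, Ebi3 and the interferon-gamma response genes, Cxcl9 and Nos2 among them, was not tested. Clec9a, which defines cross-presenting dendritic cells, was at 5.32 to 5.70 against 5.01 and 4.92, and Adgre1 (F4/80) at 6.11, 6.10 and 6.61 against 5.42 and 5.77. Batf3 was at 7.51, 7.11 and 7.54 against 7.27 and 7.53. Groups overlapped for 8 markers of this list: Batf3, Cd68, C1qa, C1qc, Cx3cr1, Fcgr1, Flt3 and Mrc1.

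In the remaining marker lists, 2 of 16 measured epithelial genes passed, both lower, against 0.0451% of all genes. Of these 16, 10 lay below both controls and 0 above, against 13.1% and 17.4% of all genes. Of 5 measured CD8 and innate-like T cell markers, 0 passed, with 0 at an unadjusted p under 0.05 (limma). Cd8a was at 0.44, Sox13 at -0.36, and Zbtb16 (PLZF) was at 10.38, 10.04 and 8.76 against 12.08 and 8.12. Of 9 measured B cell markers, 0 passed and 3 were lower at an unadjusted p under 0.05 (limma). Over all genes 14.5% had such a p in either direction. Ebf1 was at -1.07, Pax5 at -0.62, Cd79b at -0.28 and Jchain at 0.54. Among the epithelial genes Krt20 and Cdhr5 fell by 1.67 and fell by 1.41 (adjusted p = 0.0327 and 0.0366), and Krt8 and Car1 were at -1.58 and -1.96. Krt8 was at -0.14 without control replicate 1 and at -3.02 without control replicate 2. Of the T cell markers, 0 of 17 passed, with 0 at an unadjusted p under 0.05 (limma), and Cd2, Cd3e and Trat1 were at 1.31, 0.90 and 2.76. Without control replicate 1 these were 0.32, -0.49 and 0.76, and without control replicate 2 they were 2.31, 2.28 and 4.75.

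Genes whose profile over the 5 arrays was most like that of 3 members were found by the root mean square distance between profiles, each centred on its own mean. Nearest to Il12rb2 were Klrc2, an activating NKG2 receptor gene (distance 0.379), Ermn (0.383), Igsf6 (0.402) and the cystine transporter gene Slc7a11 (0.405). Nearest to Stat4 were Mif4gd (0.0361), D16Ertd472e (0.0526), the oxygen-sensing hydroxylase gene Egln3 (0.0666) and the histone demethylase gene Kdm2b (0.0869), and Egln3 and Kdm2b passed the test over all genes (1.63 and 1.43, limma, adjusted p = 0.0345 and 0.0407). Nearest to Tbx21 were Eml5 (0.0609), Cytip (0.0739), the immunoproteasome gene Psmb8 (0.0747) and Rhof (0.0763), none of which passed. These distances describe 5 arrays that all members share, and the profile of Tbx21 is mainly that of a low control replicate 1.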

How the data were processed

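RNA of sorted colon CD4 T cells was hybridised to 5 Affymetrix arrays (3 conditional, 2 control), after amplification with a whole-transcript kit, per the labels' protocols. The deposited values are log2 signals made with RMA in oligo, per the submitters' processing notes; RMA corrects background, quantile-normalizes and summarises probes, which compresses differences of dim genes and removes global shifts. The sources used here give no versions, genome build or calls against background. Of 34760 probe sets, 21640 had 1 gene symbol, 1321 several and 11799 none in the platform annotation, which is old; 19854 of 19937 genes matched a RefSeq table by gene number and 0 symbols changed. Each gene was read from its probe set of highest mean. No 2 arrays were identical, and array medians lay between 7.12 and 7.23.

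Groups were compared with limma 3.58.1 in R 4.3.3 (lmFit and eBayes, no covariate, 3 residual degrees of freedom), Benjamini-Hochberg over all genes, threshold 0.05; the procedure was tested on simulated data. The members and lists were chosen with earlier results of these data known. Named were all members, the genes past the threshold in each of 4 pathway lists filled up to 5 by p, 13 genes of the axis and its target named whatever their p (1 not analysed here), marker genes by level and by p, and the 4 profiles nearest to each of 3 members. Other markers given in the text, Cd4, Ncr1, Klrk1, Clec9a, Adgre1 and Batf3 among them, lie outside this rule. Alternatives were other normalizations, dim-gene filters, probe set choices, variance models, array weights, a replicate block, a T cell covariate and each array left out. The replicate block fits conditional replicate 3 exactly, so its differences are those without that array.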

Additional observations from a re-analysis of the deposited data

How the results depend on the processing

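Under another quantile normalization, median centring, both dim-gene filters and the mean of probe sets, 1 of the 10 genes passed and 6 had groups apart, as in the comparison itself, and 1 passed with robust eBayes. Both filters leave the values of the 10 as they are, and so does the mean of probe sets, since each gene had 1 probe set. The differences are also fixed with every probe set, a variance trend or robust eBayes. In all these settings only the estimated spread and the adjustment can change. Of the 160 values of the 10 genes under alternatives, 129 kept direction and side of the threshold. Of the rest, 23 newly passed, 3 no longer passed and 5 turned. The 3 were Il12rb2 without each conditional array, and the 5 turned without control replicate 1 or with the T cell covariate. New passes came with a control array left out, the T cell covariate, the replicate block, every probe set or a variance trend. What in these arrays moved the values was not tested.

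The number of the 10 that passed was 2 with every probe set, 2 with a variance trend, 3 with the replicate block, 6 with the T cell covariate, and 0 to 10 with single arrays left out (6 without control replicate 1, where 6.1% of all genes passed, 10 without control replicate 2, where 27.5% did, 0 without any conditional array, with 6 at an unadjusted p under 0.05 in limma). Groups were apart for 6 to 10. Il12rb2 was between 3.88 and 4.03 with arrays left out. Over all genes, 83 passed, 275 with every probe set, 13 with array weights, 1557 with the T cell covariate, and 0 to 5474 with arrays left out.

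Equal replicate numbers are not stated to mark pairs. Deviations from the group mean correlated across genes at 0.40 for number 1 and -0.29 for number 2. With 2 controls these deviations are exact opposites, so the value against one control fixes the value against the other. Conditional replicate 3, which has no partner, was at -0.58 with control replicate 1 and 0.58 with control replicate 2. These correlations therefore cannot decide whether equal numbers mark pairs. With the replicate block 69 genes passed (limma), and of the 10 Il12rb2 (3.88), Il18r1 (3.26, adjusted p = 0.0370) and Il18rap (2.76, adjusted p = 0.0437). The block fits conditional replicate 3 exactly, so these differences are those without that array, where 0 genes passed. The 2 settings differ only in how the spread is estimated. The block takes equal numbers as pairs, and it leaves fewer residual degrees of freedom than the 3 of the main fit. Its adjusted p-values therefore lean more on the spread borrowed from all genes.

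With the T cell covariate the sign turned for Il12rb1 (-0.36), Hlx (0.16), Ppp3r1 (0.11), Irf1 (-0.18), Socs1 (-0.39), Eomes (-0.997), Cd3e (-0.29), Zbtb16 (1.37) and Rhof (-0.0057). Irf1 was at -0.0034 after quantile normalization, -0.0094 after median centring, -0.082 with the mean of probe sets and -0.0019 with array weights. Eomes was at -0.012 after quantile normalization and -0.17 with array weights, and Zbtb16 at 0.11 with the replicate block. With arrays left out, signs turned within these ranges: Il12rb1 -0.45 to 0.85, Tbx21 -0.041 to 1.45, Hlx -1.27 to 0.25, Ppp3r1 -0.25 to 0.15, Irf1 -0.23 to 0.34, Socs1 -0.48 to 0.68, Runx3 -0.030 to 1.85, Eomes -1.22 to 1.37, Cd3e -0.49 to 2.28, Zbtb16 -2.35 to 1.60, Jchain -0.87 to 1.96, Eml5 -0.013 to 1.33 and Rhof -0.14 to 1.53. Without a call against background, differences of dim genes are approximate.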

Other observations

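Genes beside the 10 on the chromosome, ordered by the RefSeq table, were read after the members' values were seen and lie outside the rule for named genes. Il23r, which encodes the chain that pairs with Il12rb1 in the interleukin-23 receptor and lies next to Il12rb2, was at 9.94, 9.95 and 10.47 in conditional and 8.18 and 9.23 in control cells, a difference of 1.42 (limma, adjusted p = 0.190). On the other side of Il12rb2, Serbp1 was at 0.14, and Gadd45a, one gene further, lay below both controls on every conditional array, at 8.22, 8.51 and 7.98 against 9.39 and 9.07. Il18r1 and Il18rap are themselves neighbours. Slc9a4, which follows Il18rap, was at 0.17, and Il1rl2, which encodes an interleukin-36 receptor chain on the other side, at -0.62, with all conditional values below both controls.

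Next to Ifng, Iltifb, a close copy of the interleukin-22 gene whose probes may read both, was at 8.85, 8.46 and 8.98 in conditional and 6.95 and 7.31 in control cells, a difference of 1.63 (limma, adjusted p = 0.0660). Unlike Ifng it lay above both controls on every conditional array, but the difference between the 2 genes was not tested. Near Ifngr1, the gene of the soluble interleukin-22 decoy Il22ra2 was at 0.57 (adjusted p = 0.113) and Tnfaip3 at 0.73, and at 0.04 against control replicate 2. Near Ifngr2, Ifnar1, a chain of the type I interferon receptor, was at 0.24 and Il10rb at 0.22, while Ifngr2 was at -0.86.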
